A study of Mus musculus with 18 samples.

Results

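Mitochondrial ribosomal proteins are the nuclear-encoded proteins of the ribosome that works inside mitochondria. They were taken as all genes whose array name starts with Mrpl or Mrps followed by a digit and that had a probe flagged as well above background by the scanner software in 5 or more of the 6 mice of some group. The array carried 77 such genes, of 37074 gene names, and all 77 passed, against 21542 genes that passed in all. By symbol, 48 belonged to the large subunit and 29 to the small subunit. For each gene the brightest probe was used. Of the 77, 76 were well above background on all 18 arrays. The exception was Mrpl35, which was well above background on 5 iPGC1afl/fl CHOW arrays and on 3 arrays in each of the other groups.

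Mitochondrial ribosomes translate the few messengers of the mitochondrial genome, which encode core subunits of the respiratory chain and of ATP synthase. All of their proteins are made in the cytosol and imported, and they assemble on ribosomal RNA transcribed from mitochondrial DNA. Some have counterparts in bacterial ribosomes and others are found only in mitochondria. Enterocytes and the dividing cells of the crypt are rich in mitochondria, and Pgc1α, the coactivator encoded by Ppargc1a, is known for driving nuclear genes of mitochondrial proteins through partners such as NRF1, GABP and ERRα.

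Ileum cells of 18 mice were measured, with 1 Agilent one-colour array per mouse and 6 mice in each of 3 groups: iPGC1afl/fl on CHOW, iPGC1afl/fl on HFD, and iPGC1a-/- on HFD. All mice were on the C57BL6/J background and carried floxed Ppargc1a. The iPGC1a-/- mice also carried a Cre driven by the villin promoter, so the deletion is meant for the intestinal epithelium only, and the iPGC1afl/fl mice were littermates without Cre. The HFD, called a Western diet in the study, gave 42% of its energy as fat with 0.2% cholesterol, and was fed for 8 weeks from an age of 8 weeks. The mice were 16 weeks old when killed, fasted, at zeitgeber time 3. The cells were released from the ileum with a chelating buffer, so they are a bulk mixture of epithelial cells and of whatever else came off with them. iPGC1a-/- mice on CHOW were not analysed here. Levels are log2 normalized signals, and the level of one gene cannot be set against that of another, because each probe binds with its own strength. Nothing in the labels says that mice of a group came from separate cages or litters, so the p-values measure the spread between these mice.

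The share of spots well above background ran from 56.3% to 62.3% per array, and no spot was saturated. The signal of Ppargc1a itself was not lower in the arrays labelled iPGC1a-/-. Its brighter probe averaged 11.37 ± 0.07 (SD, n = 6) in iPGC1afl/fl on HFD and 11.67 ± 0.26 in iPGC1a-/- on HFD, a log2 difference of 0.30 with a limma adjusted p of 0.569, and a second probe differed by 0.37 with a limma adjusted p of 0.491. Whether either probe lies in the exons that Cre removes was not determined here, and a probe outside them checks nothing. Genotype therefore refers to the labels throughout. Apart from the arrays, the study reports that RT-qPCR of this gene along the intestine showed the deletion. It also reports lower ileal Tfam, Cyt-C and Atp5b by RT-qPCR.

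In iPGC1afl/fl mice, HFD against CHOW lowered 19 mitochondrial ribosomal protein genes and raised 3 at a limma adjusted p of 0.05 or lower. These are 24.7% and 3.90% of the 77, and over all genes tested 14.3% were called lower and 10.3% higher. The large subunit had 9 genes lower and 1 higher of 48, and the small subunit 10 lower and 2 higher of 29. No member passed a fold change of 1.5 together with the adjusted p, a rule that 8.43% of all genes passed, though Mrps5 passed it as lower in 7 of the 18 fits that left out 1 array and Mrps15 as higher with background-subtracted signals scaled to the 75th percentile. The shift was small and spread over the set: 61 of 77 members had a lower mean on HFD, where 49.7% of all genes did, and the median log2 fold change was -0.13 in the large and -0.20 in the small subunit, against 0.00 over all genes.

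**Figure D1:**
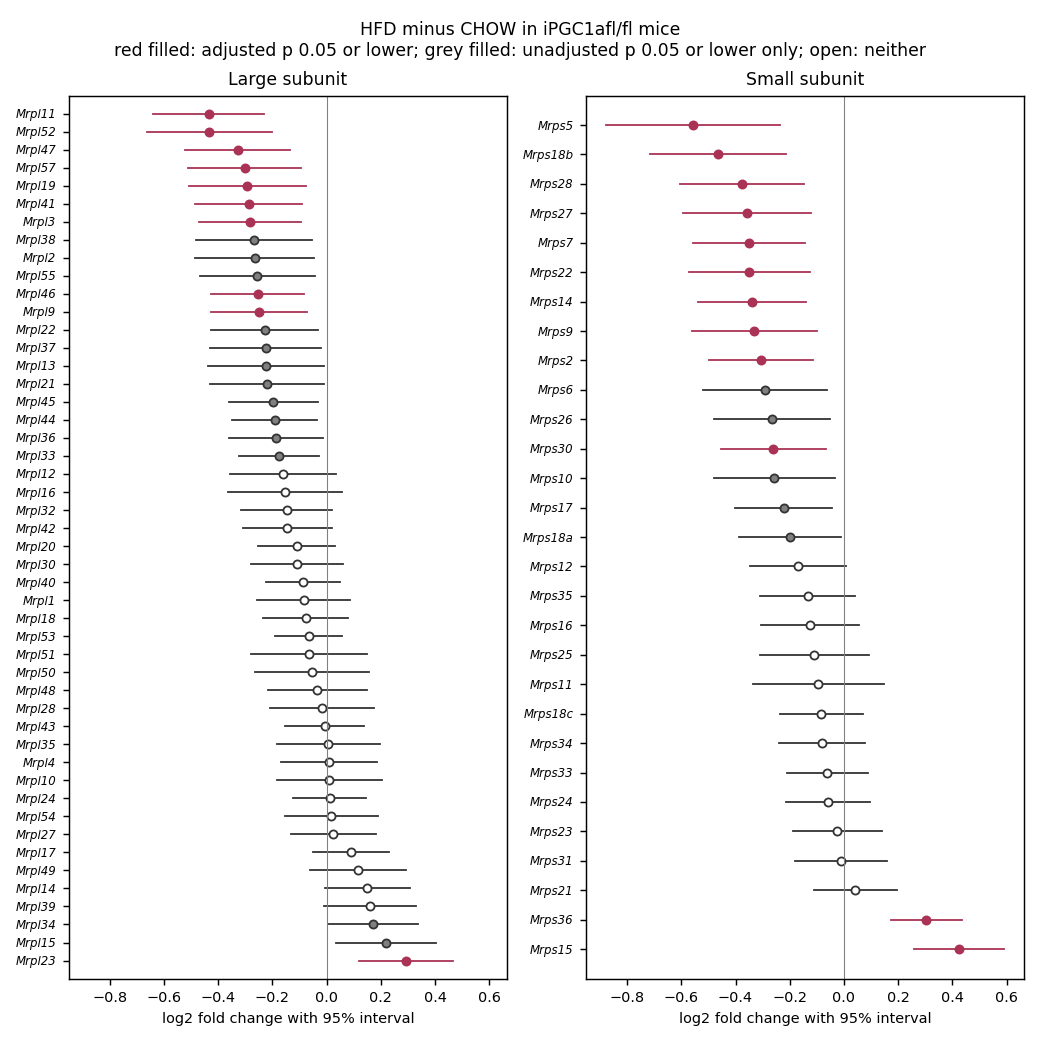
Log2 fold change (x axis) of each member between HFD and CHOW in iPGC1afl/fl mice, with its 95% interval from limma, large subunit on the left and small subunit on the right. The 19 genes called lower lie between -0.56 and -0.25, and the 3 called higher between 0.29 and 0.42.

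The count of 19 depended on how the arrays were scaled. When each array's median signal was aligned at its 75th percentile in place of qsmooth, 6 members were lower and 6 higher (7.79% each), against 9.41% and 13.3% of all genes. With the background-subtracted signal scaled in that way, 6 were lower and 7 higher (7.79% and 9.09%), against 11.1% and 13.8%. Under these scalings the share of members called lower was thus not above that of all genes. The median of all probes then shifted by 0.07 and 0.04, and relative to that shift the members' median was -0.14 and -0.09, against -0.15 in the qsmooth values. Across 5 scalings, the authors' own log2 values among them, 8 members were called in the same direction under each of them: Mrpl11, Mrpl47, Mrpl52, Mrps5 and Mrps18b lower, and Mrpl23, Mrps15 and Mrps36 higher on HFD.

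**Figure D2:**
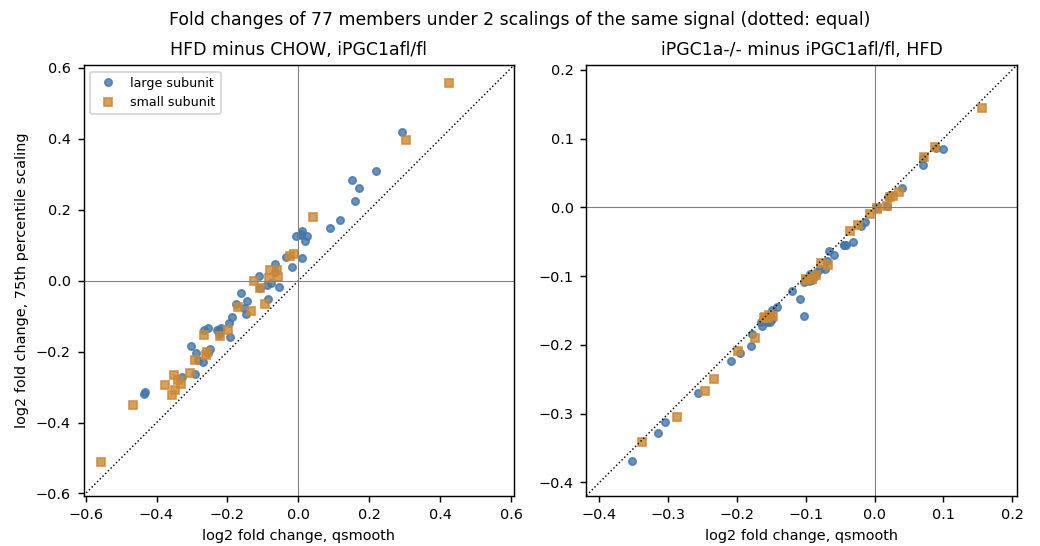
Log2 fold changes of the 77 members after qsmooth (x axis) and after scaling each array to its 75th percentile (y axis), for diet on the left and for genotype on the right. Under the second scaling the diet points lie above the dotted line of equality, and the genotype points lie close to it.

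Among the large subunit genes, Mrpl11, the counterpart of the bacterial protein L11 at the base of the stalk where translation factors bind, had the largest fall on HFD. Its level had a lowest, median and highest value of 12.17, 12.28 and 12.67 in the 6 CHOW arrays and 11.68, 11.94 and 12.12 in the 6 HFD arrays. The difference was -0.43 with a standard error of 0.10 (limma adjusted p = 0.00309, n = 6 and 6). Mrpl11 was the only one of the lower genes whose HFD arrays all lay below all CHOW arrays, which held for 5.31% of all genes, and its exact two-sided permutation p of 0.00216 is the smallest that 6 against 6 arrays can give. Its probe lies at chr19:4964880-4964939 in mm9.

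Mrpl52, a protein found only in mitochondrial ribosomes, had values of 13.27, 13.55 and 13.81 on CHOW and 12.89, 13.11 and 13.37 on HFD. It fell by 0.43 ± 0.11 (SE) on the log2 scale (limma adjusted p = 0.00747), with the groups overlapping at one end. Mrpl47, related to bacterial L29 at the exit of the peptide tunnel, went from 9.93, 10.20 and 10.53 to 9.63, 9.91 and 9.997, a difference of -0.33 (limma adjusted p = 0.0141). For Mrpl47 the call was lost without replicate 4 of iPGC1afl/fl on CHOW (limma adjusted p = 0.0505).

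The other large subunit genes that fell did so by less. Mrpl57 (-0.30), Mrpl19 (-0.29), Mrpl41 (-0.29), Mrpl3 (-0.28), which lies near the catalytic centre, Mrpl46 (-0.25) and Mrpl9 (-0.25) had limma adjusted p values between 0.0272 and 0.0463. The call of Mrpl19, the one closest to the threshold, was lost in 8 of 13 alternative settings, and those of Mrpl57 and Mrpl41 were lost under both scalings to the 75th percentile. The calls of Mrpl9, Mrpl46 and Mrpl3 were lost in 4, 2 and 1 of the 13. Of the 18 fits that left out 1 array, Mrpl19 was lost in 10, Mrpl9 in 7 and Mrpl57 in 6. Mrpl41 was lost in 5 of these 18, Mrpl3 in 4 and Mrpl46 in 3.

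The gene of the large subunit that rose was Mrpl23, the counterpart of bacterial L23 beside the tunnel exit. Its lowest, median and highest levels were 12.92, 13.03 and 13.34 on CHOW and 13.28, 13.37 and 13.49 on HFD, so that the groups overlapped by little. The difference was 0.29 ± 0.08 (SE, limma adjusted p = 0.0145). Mrpl15 and Mrpl34 also had higher means on HFD, by 0.22 and 0.17, and did not pass (limma adjusted p = 0.0809 and 0.126). A dimmer Mrpl15 probe did pass, with a difference of 0.35 (limma adjusted p = 0.0234).

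In the small subunit, Mrps5, the counterpart of bacterial S5 at the entry of the messenger channel, had the largest change of all 77 members. Its values were 9.38, 9.57 and 10.49 on CHOW and 8.89, 9.13 and 9.47 on HFD. The fall was 0.56 on the log2 scale with a standard error of 0.15 (limma adjusted p = 0.0127). The highest CHOW value came from replicate 4, and without that array the difference was -0.40 (limma adjusted p = 0.0403). A second Mrps5 probe, at another position of the gene, had a difference of -0.23 (limma adjusted p = 0.110).

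Mrps18b fell by 0.47 on the log2 scale, from 12.32, 12.62 and 13.00 on CHOW to 11.86, 12.17 and 12.53 on HFD (limma adjusted p = 0.00796), with overlap between the groups. A second probe that overlaps it along the sequence fell as well, by 0.42 (limma adjusted p = 0.0174). Mrps18b is one of the paralogs that share the fold of bacterial S18, and the others did not pass: Mrps18a differed by -0.20 (limma adjusted p = 0.115) and Mrps18c by -0.08 (limma adjusted p = 0.445). The difference between the paralogs was not tested.

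Further small subunit genes that fell were Mrps28 (-0.38), Mrps27 (-0.36), a pentatricopeptide repeat protein that binds RNA, Mrps7 (-0.35), an early-binding protein of the subunit's head, Mrps22 (-0.35), Mrps14 (-0.34), Mrps9 (-0.33), Mrps2 (-0.31) and Mrps30 (-0.26). Mrps30 keeps a small subunit name but sits in the large subunit in known structures. The limma adjusted p values ranged from 0.0133 for Mrps14 to 0.0475 for Mrps30, and in each of these 8 genes the 2 groups overlapped. The calls of Mrps30 and Mrps9 were lost in 9 and 5 of 13 alternative settings, and in 9 and 6 of the 18 fits that left out 1 array. Mrps27 and Mrps22 were lost in 5 such fits each, Mrps2 in 4 and Mrps28 in 3, while Mrps7 and Mrps14 were lost in none of these 18. In the 13 alternative settings Mrps14, Mrps22 and Mrps2 were lost in 3 each, Mrps7 and Mrps28 in 2 each and Mrps27 in 1. A dimmer Mrps14 probe had a difference of 0.08 (limma adjusted p = 0.593).

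Mrps15 and Mrps36 rose, and in both all HFD arrays lay above all CHOW arrays, as in 5.09% of all genes. Mrps15, the counterpart of bacterial S15, which binds ribosomal RNA early in assembly, went from 12.57, 12.75 and 12.89 on CHOW to 12.99, 13.16 and 13.32 on HFD, a difference of 0.42 ± 0.08 (SE, limma adjusted p = 0.000669). It was the smallest adjusted p among the members. A second, dimmer probe of Mrps15 had a difference of 0.19 (limma adjusted p = 0.184).

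Mrps36 was named as a ribosomal protein and is now known as a component that anchors the E3 enzyme in the 2-oxoglutarate dehydrogenase complex of the citric acid cycle. Its levels were 11.64, 11.75 and 11.87 on CHOW and 11.95, 12.07 and 12.13 on HFD. The difference was 0.30 ± 0.06 (SE, limma adjusted p = 0.00149). Both groups were narrow, with a gap between the highest CHOW and the lowest HFD array.

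**Figure D3:**
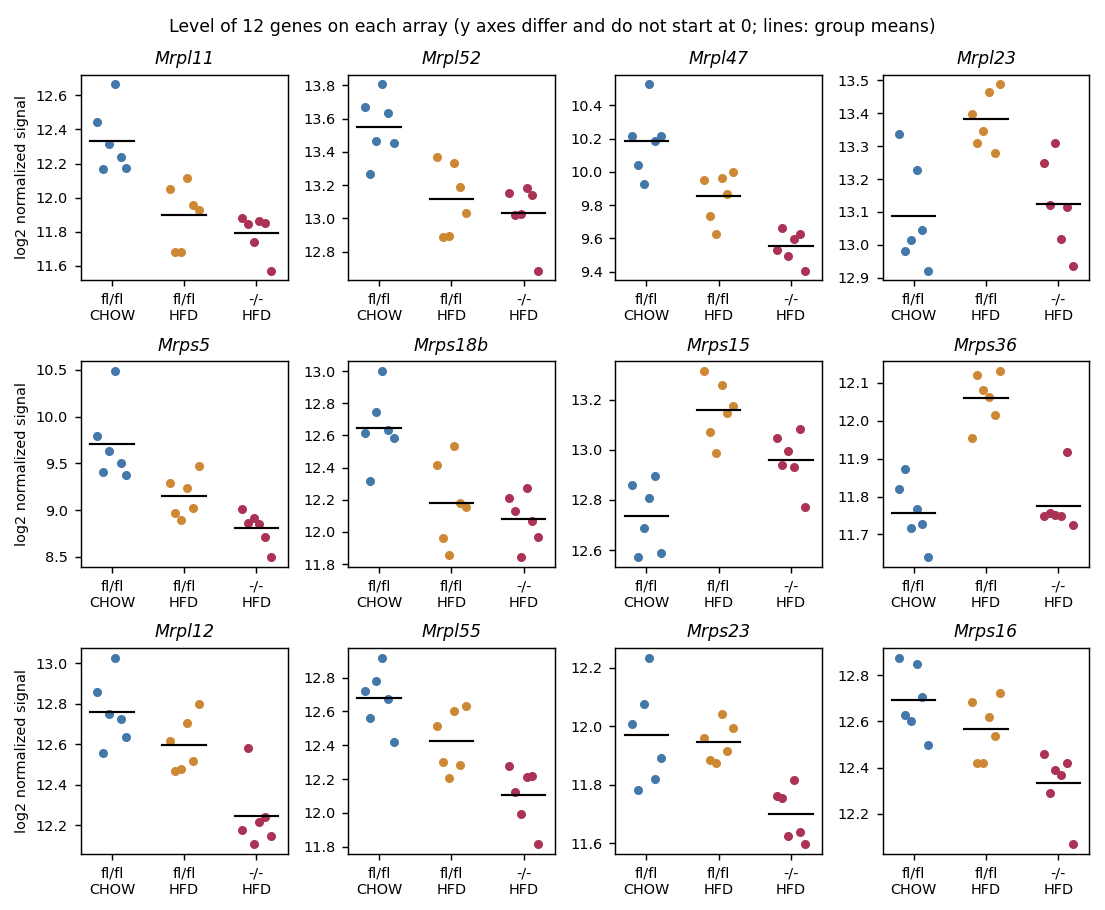
Log2 normalized signal (y axis, one scale per gene) of 12 members on each of the 6 arrays of the 3 groups, with group means as lines. Mrpl11, Mrps15 and Mrps36 show no overlap between CHOW and HFD in iPGC1afl/fl mice, and Mrps36 and Mrps23 show none between the genotypes on HFD.

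Grouped by origin, genes with bacterial counterparts and genes found only in mitochondria both held members that fell. Over all genes, 14.3% were called lower and 10.3% higher. Of 29 conserved large subunit genes 5 fell (17.2%) and 1 rose, with a median of -0.11. Of 17 large subunit genes found only in mitochondria 3 fell (17.6%), with a median of -0.09. In the small subunit 5 of 15 conserved genes fell (33.3%) and 1 rose (median -0.22). Of 9 mitochondria-specific genes there, 2 fell (22.2%, median -0.11). The lists used here left 7 genes in neither class: Mrpl55, Mrpl57, Mrps18a, Mrps18b, Mrps28, Mrps30 and Mrps36. Of these, 4 were lower and 1 higher. Differences between these classes were not tested.

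Within each slide, which held 2 arrays of every group, 60, 56 and 63 of the 77 members had a lower mean on HFD, with medians of -0.14, -0.12 and -0.13. The number called rested on single arrays. It was 7 lower and 3 higher without replicate 4 of iPGC1afl/fl on CHOW, whose small subunit median lay 0.41 above the mean over all arrays. In that fit 11% of all genes were lower and 8.23% higher. The number lower was 7 without replicate 2, 6 without replicate 3 and 12 without replicate 6 of iPGC1afl/fl on HFD. It was 30 without replicate 4 of that group, with 3 higher in each case. Of all genes, 10.7%, 10.3%, 11.9% and 16.5% were lower in these HFD fits, and 8.37%, 8.53%, 9.99% and 9.15% higher. Without CHOW replicate 4, HFD replicate 2 or HFD replicate 3, the share of members called lower was thus not above that of all genes.

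**Figure D4:**
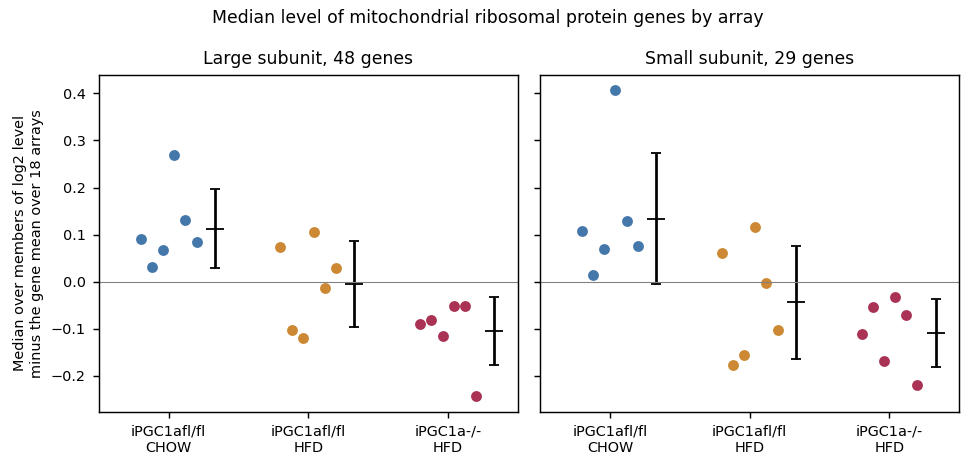
Median over the members of a subunit of each gene's log2 level minus its mean over the 18 arrays (y axis), for every array in the 3 groups, with the group mean and SD beside the points. In the large subunit the CHOW arrays of iPGC1afl/fl mice lie between 0.03 and 0.27, the HFD arrays between -0.12 and 0.11, and the iPGC1a-/- HFD arrays between -0.24 and -0.05.

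Marker genes of several other cell types moved with diet in the same arrays, where 14.3% of all genes were lower and 10.3% higher. Of the markers of T cells and intraepithelial lymphocytes 7 of 8 were lower on HFD, of B cells 4 of 5, of plasma cells 4 of 4, of goblet cells 7 of 7, of proliferating crypt cells 6 of 12, and of enterocytes 1 of 11, with 2 higher. The summed normalized signal of the crypt markers ranged from 13091 to 23654 on CHOW and from 10682 to 16723 on HFD, that of the T cell markers from 14751 to 48276 and from 7010 to 11394, and that of the goblet markers from 464608 to 611784 and from 211445 to 493672. Every enterocyte marker was measured, with summed signals of 996192 to 1211814 and 1065457 to 1285719. Of the other lists, Paneth cells had 1 of 6 markers lower, tuft cells 1 of 3 and macrophages 2 of 4. Enteroendocrine cells had 1 lower and 1 higher of 8. Of the fibroblast and muscle markers 0 of 6 were called, and of endothelium 0 of 1. The part of these cells in the lower members was not tested, and in bulk cells fewer cells of a type and less RNA per cell cannot be told apart.

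The regions before the start sites of these genes are shown because members that move together can be read side by side. RefSeq promoter windows on GRCm38.p6, with 250 bases before and 50 after the start, matched 68 of the 77 members with 74 windows. Mrps5 and Mrps15 had the largest fall and the largest rise on HFD. The 250 bases before their starts, each on the plus strand, follow with the CG dinucleotides in capitals: Mrps5 at chr2:127587176-127587425 and Mrps15 at chr4:126046678-126046927.
Mrps5: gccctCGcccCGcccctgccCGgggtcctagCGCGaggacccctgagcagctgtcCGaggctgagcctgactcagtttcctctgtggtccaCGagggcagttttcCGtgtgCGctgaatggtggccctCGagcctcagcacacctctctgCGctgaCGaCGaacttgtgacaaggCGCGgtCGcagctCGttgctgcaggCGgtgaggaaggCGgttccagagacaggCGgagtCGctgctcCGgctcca
Mrps15: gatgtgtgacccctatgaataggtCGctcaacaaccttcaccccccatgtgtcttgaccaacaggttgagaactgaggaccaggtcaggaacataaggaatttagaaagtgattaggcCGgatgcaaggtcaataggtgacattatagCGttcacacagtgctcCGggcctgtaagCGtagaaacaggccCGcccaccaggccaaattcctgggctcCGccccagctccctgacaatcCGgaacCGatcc
The stretch of Mrps5 held 22 CG dinucleotides with 66.8% G and C, and that of Mrps15 held 9 with 53.6%. Over the same 250 bases before the start, the median was 17 dinucleotides and 58.4% in the members' windows, and 6 and 52.4% in all 32851 windows of the table.

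Motifs of factors known to act on nuclear genes of mitochondrial proteins were searched on both strands of each window. GCGCANGCG, the core bound by NRF1, was in 16 of 74 member windows (21.6%) and in 6.25% of all windows. CCGGAAG, bound by ETS factors such as GABP, was in 25 (33.8%) and in 8.86%. AAGATGGCG, bound by YY1, was in 8 (10.8%) and in 1.40%. TCAAGGTCA, bound by ERRα, was in 0 and in 0.423%. The ETS and YY1 letters can overlap where one follows the other, and 41 genes held at least 1 motif. Stretches of 60 bases are shown for the members called for diet or described for genotype with a match wholly before the start, with the matched bases in capitals: NRF1 in Mrpl12 (chr11:120484532-120484591, plus strand), Mrpl57 (chr14:57826157-57826216, plus), Mrpl9 (chr3:94443276-94443335, plus) and Mrps18b (chr17:35916630-35916689, minus), and ETS in Mrpl3 (chr9:105053208-105053267, plus), Mrpl52 (chr14:54426837-54426896, plus), Mrps22 (chr9:98601680-98601739, minus), Mrps27 (chr13:99344713-99344772, plus) and Mrps16 (chr14:20393530-20393589, minus).
Mrpl12: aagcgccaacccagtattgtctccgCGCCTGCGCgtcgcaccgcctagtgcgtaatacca
Mrpl57: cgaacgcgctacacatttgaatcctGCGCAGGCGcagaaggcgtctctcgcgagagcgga
Mrpl9: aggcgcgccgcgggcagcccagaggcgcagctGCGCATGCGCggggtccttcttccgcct
Mrps18b: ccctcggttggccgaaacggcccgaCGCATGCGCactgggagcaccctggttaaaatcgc
Mrpl3: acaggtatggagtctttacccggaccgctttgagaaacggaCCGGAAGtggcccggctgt
Mrpl52: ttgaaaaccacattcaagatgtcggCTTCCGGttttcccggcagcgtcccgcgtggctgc
Mrps22: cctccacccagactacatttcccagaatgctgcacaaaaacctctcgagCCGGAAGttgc
Mrps27: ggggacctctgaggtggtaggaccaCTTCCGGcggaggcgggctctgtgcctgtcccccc
Mrps16: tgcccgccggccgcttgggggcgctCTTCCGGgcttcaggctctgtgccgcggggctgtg
A match is a string of letters and not a binding site, and these windows were not tested against the fold changes. Of the 8 members called under every scaling, Mrpl52 and Mrps18b had a motif before the start, and the windows of the other 6 held none of the 4.

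The arrays labelled iPGC1a-/- were compared with iPGC1afl/fl on HFD to ask how the deletion bears on these genes under the diet. None of the 77 members passed a limma adjusted p of 0.05, a threshold that 0.214% of all genes passed. At an unadjusted limma p of 0.05 or lower 13 were lower (16.9%) and 0 higher, against 4.81% and 4.51% of all genes. The means of 59 of 77 were lower, where 47.7% of all genes were, and the medians were -0.09 in both subunits against 0.01 over all genes. For 76 members the 95% interval of the difference lay within a fold change of 1.5 either way, and over all members the intervals reached from -0.66 to 0.40 on the log2 scale. With normexp background correction, with the mean of all probes of a gene, or without replicate 5 of iPGC1a-/-, 1 member, Mrps36, passed.

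**Figure D5:**
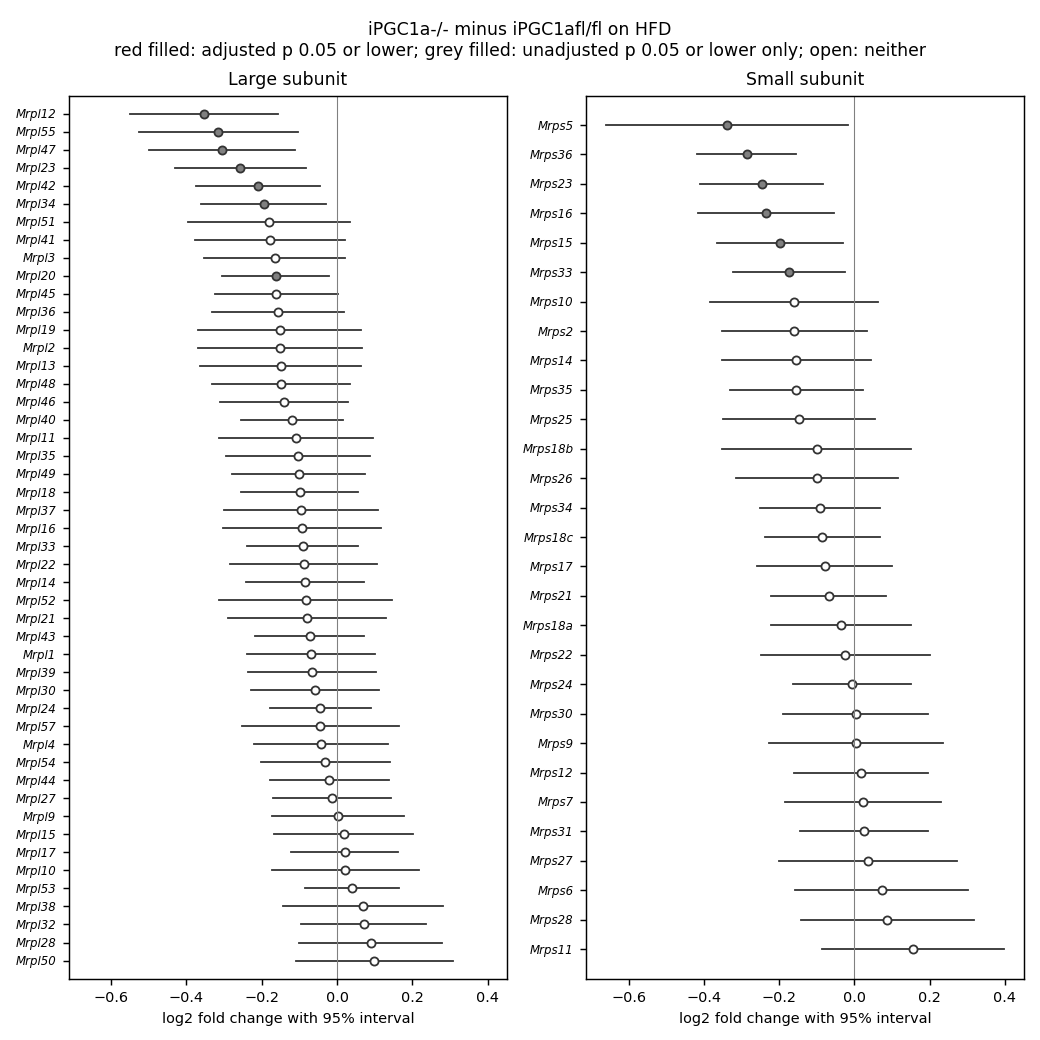
Log2 fold change (x axis) of each member between arrays labelled iPGC1a-/- and iPGC1afl/fl, both on HFD, with its 95% interval from limma, large subunit on the left and small subunit on the right. Most points lie below 0, from -0.35 to 0.16, and none passed the adjusted p.

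Mrps36 had the smallest p of the members. Its levels on HFD were 11.95, 12.07 and 12.13 in iPGC1afl/fl and 11.73, 11.75 and 11.92 in iPGC1a-/-, without overlap, which was the case with a lower level in 0.645% of all genes. The difference was -0.29 ± 0.06 (SE, limma adjusted p = 0.0805, exact permutation p = 0.00216). That permutation p only restates the lack of overlap, in a gene picked for its smallest p. In iPGC1a-/- on HFD, 5 of the 6 arrays lay in the range of CHOW-fed iPGC1afl/fl mice and replicate 5 lay above it, with a difference of 0.02 between those groups. The difference between the genotypes on HFD was negative within each of the 3 slides, from -0.35 to -0.23.

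Mrps23, a mitochondria-specific protein of the small subunit, was the other member without overlap. Its values were 11.87, 11.94 and 12.04 in iPGC1afl/fl and 11.60, 11.70 and 11.82 in iPGC1a-/-, a difference of -0.25 ± 0.08 (SE, limma adjusted p = 0.326). Mrps16, the counterpart of bacterial S16, had a difference of -0.23 (limma adjusted p = 0.422) with overlapping groups. On diet alone neither gene had passed.

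In the large subunit, Mrpl12, the stalk protein that contacts translation factors, had the largest difference. Its values were 12.47, 12.57 and 12.80 in iPGC1afl/fl and 12.11, 12.20 and 12.58 in iPGC1a-/-, where a single array, replicate 2, lay apart above the others. The difference was -0.35 ± 0.09 (SE, limma adjusted p = 0.206), and -0.42 without that array (limma adjusted p over all arrays left out in turn from 0.0712 to 0.466). Mrpl55 had a difference of -0.31 (limma adjusted p = 0.338) and Mrpl47 of -0.31 (limma adjusted p = 0.296).

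Mrpl23 and Mrps15, which had risen on HFD, were also lower in iPGC1a-/- on HFD at the unadjusted threshold, with differences of -0.26 and -0.20 (limma adjusted p = 0.342 and 0.460). These comparisons share the iPGC1afl/fl HFD arrays, so a high value there moves both. Within slides, 39, 59 and 68 of the 77 members had a lower mean in iPGC1a-/-, with medians of -0.00054, -0.11 and -0.16, so that slide 1 did not show the shift.

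Arrays of iPGC1a-/- on HFD were also set against iPGC1afl/fl on CHOW, which differ in both genotype and diet and share arrays with both contrasts above. Here 42 members were lower and 2 higher at a limma adjusted p of 0.05 or lower, which is 54.5% of the 77 for the lower genes, against 19.9% lower and 16.9% higher over all genes. The large subunit had 23 lower and 1 higher, and the small subunit 19 lower and 1 higher. In 24 members (31.2%) all iPGC1a-/- arrays lay below all CHOW arrays, as in 8.63% of all genes. With median signals scaled to the 75th percentile 24 members were lower and 2 higher, against 15.1% and 18.2% of all genes, and with background-subtracted signals 25 and 3, against 16.7% and 19.3%.

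Markers of several other cell types moved in this comparison too, where 19.9% of all genes were lower and 16.9% higher. Of the markers of T cells and intraepithelial lymphocytes 7 of 8 were lower, of B cells 4 of 5, of plasma cells 3 of 4, of goblet cells 5 of 7 and of proliferating crypt cells 6 of 12, while of the enterocyte markers 5 of 11 were higher and 1 lower. In iPGC1a-/- on HFD the summed signal ranged from 11537 to 14211 for the crypt markers, from 8729 to 13684 for the T cell markers, from 303291 to 440829 for the goblet markers and from 1180110 to 1376743 for the enterocyte markers. Of the other lists, Paneth cells had 1 of 6 markers lower, tuft cells 1 of 3 and macrophages 1 of 4. Enteroendocrine cells had 1 lower and 3 higher of 8. Of the fibroblast and muscle markers 0 of 6 were called, and the 1 endothelium marker was higher. The part of all these cells in the members' levels was not tested. Between the genotypes on HFD none of these markers passed.

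Mrps5 and Mrpl47 passed a fold change of 1.5 as well, which 6.85% of all genes did with a lower level. Mrps5 ranged from 9.38 to 10.49 on CHOW and from 8.49 to 9.01 in iPGC1a-/- on HFD, a difference of -0.89 ± 0.15 (SE, limma adjusted p = 0.000192), a fold of 1.86. Mrpl47 ranged from 9.93 to 10.53 and from 9.41 to 9.66, a difference of -0.63 ± 0.09 (SE, limma adjusted p = 3.92e-05), a fold of 1.55. In both the groups did not overlap. Their second probes had differences of -0.36 and -0.30 (limma adjusted p = 0.0106 and 0.00478). Mrpl47 lay close to the fold threshold and did not reach it with median signals scaled to the 75th percentile (-0.58), with the mean of its probes (-0.47) or without replicate 4 of iPGC1afl/fl on CHOW (-0.56). Mrps5 passed both rules in each of these.

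Next in the large subunit were Mrpl55 (-0.57), Mrpl11 (-0.54), Mrpl52 (-0.52), Mrpl12 (-0.51), Mrpl41 (-0.47), Mrpl3 (-0.45) and Mrpl19 (-0.45), and in the small subunit Mrps18b (-0.57), Mrps14 (-0.49), Mrps2 (-0.47), Mrps10 (-0.42) and Mrps22 (-0.37). Their limma adjusted p values lay between 0.000261 for Mrpl55 and 0.0111 for Mrps22. The higher genes were Mrpl15 (0.24) and Mrps15 (0.23), with limma adjusted p values of 0.0434 and 0.0336. Mrpl23 and Mrps36, which rose with diet alone, did not pass here.

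Probes of one gene did not always give the same answer. Of the 28 members with several tested probes, all probes of the gene had the same sign in 25 for diet, in 15 for genotype and in 23 for both factors together. For diet the brightest probe was called in 10 of these genes and another probe as well in 1, Mrps18b. In 3 others, Mrpl15, Mrpl21 and Mrps21, a dimmer probe was called and the brightest was not. All the other probes were dimmer, because the brightest was chosen to stand for the gene.

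Genes that serve the mitochondrial ribosome without being named for it were counted from lists of ribosome-associated proteins, translation factors, assembly factors, mitochondrial tRNA synthetases and factors of mitochondrial DNA transcription. Of their 77 measured genes 8 fell and 1 rose on HFD in iPGC1afl/fl mice, with a median of -0.15. These are 10.4% and 1.30%, not above the 14.3% and 10.3% of all genes. For genotype 0 passed, and for both together 25 fell (32.5%, against 19.9% of all genes) and 1 rose. Those that fell with diet were Iars2 (-0.58), the mitochondrial isoleucyl-tRNA synthetase, C1qbp (-0.54), a matrix protein, Fastkd2 (-0.44), an RNA-binding protein, Pars2 (-0.36), the prolyl-tRNA synthetase, the elongation factors Gfm1 (-0.33) and Tufm (-0.25), the helicase Dhx30 (-0.29) and Dap3 (-0.23), a GTP-binding protein of the small subunit. Nsun4, which methylates mitochondrial ribosomal RNA, rose by 0.31. All of these are log2 differences with limma adjusted p values between 4.36e-05 and 0.0479.

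Of 9 regulators of such genes, Myc (-0.79), Ppargc1b (-0.55) and Pprc1 (-0.49) fell on HFD and Esrra, which encodes ERRα, rose (0.34), with limma adjusted p values from 0.00562 to 0.0274. Nrf1 (-0.17) and Gabpa (0.07) did not pass. The brighter probe of Ppargc1a had a difference of 0.44 (limma adjusted p = 0.0568) and its second probe of 0.51 (limma adjusted p = 0.0277). In iPGC1a-/- on HFD against iPGC1afl/fl on CHOW the brighter probe was higher by 0.74 (limma adjusted p = 0.00160). For genotype none passed, and Esrra had a difference of -0.40 (limma adjusted p = 0.0506).

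The 79 cytosolic ribosomal protein genes had 8 lower and 0 higher on HFD with a median of -0.16, and a genotype median of -0.02. The diet counts of called genes were not above the shares of all genes, 14.3% lower and 10.3% higher. Yet 78 of the 79 had a lower mean on HFD, against 61 of the 77 mitochondrial ribosomal protein genes and 49.7% of all genes. The 80 genes of respiratory chain and ATP synthase subunits had 0 lower and 4 higher on HFD with a median of 0.06. Those counts were not above the shares of all genes either, and 23 of the 80 had a lower mean. Their genotype median was -0.19, with 46 lower at an unadjusted limma p of 0.05 or lower, against 4.81% of all genes. Set beside them, the mitochondrial ribosomal proteins had medians of -0.15 for diet and -0.09 for genotype. Differences between the sets were not tested.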

How the data were processed

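Ileum cells of 18 mice in 3 groups of 6 were hybridised to one-colour Agilent arrays of the SurePrint G3 Mouse GE v2 design. For each array the authors deposited the spot intensity values of Agilent Feature Extraction 10.10.1.1 (median and mean signal, local background, background-subtracted signal, flags), not normalized between arrays. A second deposited file holds log2 values of 33095 probes, which the methods describe as filtered, corrected for washing bath and labelling serial and normalized with qsmooth. The medians of its columns lay between 7.441 and 7.445 and each column correlated with the log2 median signal of the same array at 0.9997 to 1.0000 over probes. Baths and serials are not named in the sources used here, so that correction was not repeated.

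Control and outlier spots were left out, spots of a probe were averaged, and the 32726 probes that passed the rule on background in 5 of 6 mice of some group were kept. Log2 median signals went through a rewritten qsmooth (window 0.05) and tested in one model of the 3 groups with limma 3.58.1 (lmFit, eBayes) in R 4.3.3, with Benjamini-Hochberg adjustment over all probes. A gene stands by its brightest probe and was called where the adjusted p was at most 0.05, and a second count also asked for a fold above 1.5. For single genes an exact permutation test, two-sided, ran over 924 divisions. The standard error of log2 fold changes had a median of 0.104 over probes, and how it depends on the signal was not tested. The test was checked on simulated data. Groups and replicate numbers came from the labels, and slides from the slide barcodes of the arrays. The labels do not say whether equal replicate numbers mark paired mice, and the main model did not pair them. Probe coordinates are given on mm9, as in the array files, and whether a probe lies in an exon or UTR was not determined here. Promoter windows come from RefSeq on GRCm38.p6, and the 2 builds were not mixed. The NRF1 letters searched were 1 base shorter than first planned. All 77 symbols were found in RefSeq. Files were read with version 1.17.8 of data.table, and figures drawn with matplotlib 3.10.9 in Python 3.11.15.

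Genes named are, per contrast and subunit, up to 8 large and 6 small subunit members with the largest fold change among those called, and where fewer than 3 passed, the 3 with the smallest p. Other members that are named were chosen after their values were seen. The members, the gene lists and the tests were chosen with earlier results of these data known. Alternatives were other background corrections and scalings, no and a strict filter, slide or replicate as a block, fits of 2 groups at a time, robust trended variances, weights for arrays, an adjusted p of 0.01, the mean of all probes, and each array left out.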

Additional observations from a re-analysis of the deposited data

Results flagged for a closer look

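In all, 5 values stood apart from the rest of their group of 6, each by a gap to the nearest array that is large against the range of the group. Such a gap appeared in 5 of the 81 groups examined (6.17%), and chance gives about 1 in 20. Mrpl52 in iPGC1a-/- on HFD had its lowest level, 12.69, in replicate 6, with the next array at 13.02. Mrpl12 in the same group had its highest level, 12.58, in replicate 2, with the next at 12.24. Mrps36 in that group had its highest level, 11.92, in replicate 5, with the next at 11.76. The large subunit median of iPGC1a-/- on HFD was lowest in replicate 6, at -0.24, with the next array at -0.11. The small subunit median of iPGC1afl/fl on CHOW was highest in replicate 4, at 0.41, with the next at 0.13.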

How the results depend on the processing

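For the 22 members called by diet and the 44 called for both factors together, and for the 6 described by rule for genotype, the direction was the same in each of the 13 alternative fits and the 18 that left out 1 array. Of the diet calls 8 were kept in all 13 and 9 in all 18. The diet counts moved with the scaling. With background-subtracted signals scaled to the 75th percentile, 4 large and 2 small subunit genes were lower and 5 large subunit genes higher by diet, and the large subunit median was -0.029. With median signals scaled in that way, 3 and 3 were lower and 4 large subunit genes higher, with a large subunit median of -0.043. Of all genes, 11.1% were lower and 13.8% higher by diet under the first scaling, and 9.41% and 13.3% under the second. For both factors together, 15 and 10 were lower under the first and 14 and 10 under the second, and the first had 2 large subunit genes higher. Of all genes, 16.7% and 15.1% were lower there, and 19.3% and 18.2% higher. The cause of the change with scaling was not tested. With normexp correction 2 large subunit genes were higher by diet and 1 small subunit gene was lower by genotype, and the mean of all probes gave 2 and 1 as well. At an adjusted p of 0.01, 2 large and 1 small subunit gene were lower and 0 large subunit genes higher by diet. For both factors together 7 small subunit genes were lower at 0.01, with 0 higher in either subunit. The shares of all genes at that threshold are not given here. The count of 1 higher large subunit gene for both factors was 0 without a filter, with slide as a block, with only the groups compared and with array weights, and that of the small subunit was 0 with only the groups compared. Without each array in turn, the diet counts ranged from 2 to 16 lower and 1 to 2 higher in the large subunit. In the small they ranged from 4 to 14 lower, with 2 higher each time. Of all genes, 10.3% to 16.5% were lower and 8.23% to 11.1% higher by diet in these fits. The genotype count of lower small subunit genes ranged from 0 to 1, where 0.0789% to 0.158% of all genes were lower. For both factors together the counts ranged from 20 to 27 lower and 0 to 1 higher in the large subunit. In the small they ranged from 13 to 19 lower and 0 to 1 higher. Of all genes, 16.4% to 22.3% were lower and 13.4% to 17.5% higher there. Whether equal replicate numbers mark paired mice is not stated in the labels, and these values do not settle it. Deviations of equal numbers correlated between -0.13 and 0.28 for diet and between -0.19 and 0.33 for genotype. For both factors together they correlated between -0.22 and 0.35. Of 6 mice, 4 correlated best with their own number for diet, 3 for genotype and 1 for both. With the replicate block 22 members were lower and 3 higher by diet, 0 passed for genotype, and 43 were lower and 2 higher for both. The standard error of a member's log2 fold change was 0.06 to 0.15, which limits what can be said of the smaller differences.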
